A study of Mus musculus with 2 samples.

Results

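The genes described here encode guidance ligands and their receptors, namely the ephrins with their Eph receptors, the semaphorins with the neuropilins and plexins, and the Slits with the Robos. They were taken by the gene name printed on the array (Epha, Ephb, Efna or Efnb with a number, Sema3 to Sema7 with a letter, Plxna to Plxnd, Nrp1 and Nrp2, Slit1 to Slit3, Robo1 to Robo4), which gave 78 probes of 60 genes among 31693 gene names on the array. Of these, 57 genes had a probe well above background, with all 72 of their passing probes so in all 4 channels, and 3 genes, Epha6, Epha10 and Robo3, did not pass. The ureters, the tubes between kidney and bladder, came from NMRI mouse embryos of stage E14.5. The RNA labelled Bmp4cKO came from embryos of the genotype Tbx18(cre/+);Bmp4(fl/fl), in which cre is driven from the Tbx18 locus, a gene of the undifferentiated ureteric mesenchyme, so that only cells with a history of Tbx18 expression can recombine. The RNA labelled control came from Tbx18(+/+);Bmp4(fl/?) embryos, without cre and with a second Bmp4 allele that the labels do not specify. An RNA of each label was hybridised to each of 2 two-colour arrays, and the labels do not say if it was pooled from several embryos. On replicate 1, labelled female, the RNA labelled Bmp4cKO carried the green dye, and on replicate 2, labelled male, it carried the red dye.

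Guidance ligands were first described as signals that steer growing axons, and the same molecules act between neighbouring cells in many developing tissues. Ephrins are bound to the cell surface and meet Eph receptor tyrosine kinases on the adjacent cell, secreted class 3 semaphorins act through complexes of a neuropilin and a plexin while membrane-bound semaphorins mostly bind plexins directly, and Slits are secreted ligands of Robo receptors. In the mouse embryo, Slit2 and Robo2 restrict the place where the ureteric bud grows out of the nephric duct, and several Eph, ephrin, semaphorin and Robo genes are known for their part in vessels and nerves, which also run along the ureter.

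The labels and the signals disagreed in 2 respects. Bmp4, the targeted gene and a secreted signal of ureteric mesenchyme, had processed signals (scanner intensities after the software's background and dye correction) of 29491 and 27393 in the RNA labelled Bmp4cKO, against 3613 and 1973 in the RNA labelled control. All ratios below are log2 of RNA labelled Bmp4cKO over RNA labelled control, and that of Bmp4 was 3.04 and 3.71, averaging 3.38 ± 0.48 (SD, n = 2 arrays), which goes against the label. The authors' deposited table, under sample titles that read Bmp4cKO vs control, has the opposite sign, with signed folds of -8.16 and -13.9. The sources do not say if this probe covers sequence that cre deletes. A probe outside that sequence would not show the deletion itself, and the cause of the higher Bmp4 signal was not tested. Tbx18, the locus of the cre, had signals of 5076 and 5851 in the RNA labelled Bmp4cKO, against 2603 and 2875 in the RNA labelled control (mean log2 0.97 ± 0.17; limma adjusted p = 0.04). On replicate 2, labelled male in both channels, a probe of Xist had a signal of 1464 in the RNA labelled Bmp4cKO, against 4.31 in the RNA labelled control, and the Y-linked Ddx3y had 6.25 against 2720. The genotype labels and the sex-linked signals moved together there, and the part of sex in the values below was not tested. On replicate 1, labelled female, no channel had Ddx3y above background. The plot by family gives the values of each array, so that replicate 1 can be read alone. Directions follow the dye labels, and every direction turns if those labels are exchanged. Higher therefore means the direction of the Bmp4 probe and lower the opposite direction.

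As a set, the guidance genes lay to the side opposite to Bmp4 more often than to the side of Bmp4. Of the 57 genes, 29 had a ratio below 0 on both arrays (50.9%, against 30.6% of all 21978 genes fitted) and 15 had one above 0 on both (26.3%, against 28.2%). Among the 29, Epha5, Sema4c and Sema6d were measured by probes with an alternating TG or AC run, described below. Of 106 such probes on the array, 84 had a ratio below 0 on both arrays. In opposite directions on the arrays went 13 (22.8%, against 41.2%). The median log2 ratio over the guidance genes was -0.18, with -0.15 on each array, and over all genes it was -0.01. With the fit across all genes (limma, Benjamini-Hochberg adjusted p under 0.05), Epha3, Epha8 and Sema5b were lower, 3 of 57 against 1.02% of all genes (1.91% in either direction). None was higher (limma, 0 of 57 against 0.887% of all genes), with Epha5 measured by its probe with a run. Without probes of that kind, an alternative chosen after seeing the data, Epha5 was at 1.05 and passed as higher (limma adjusted p = 0.031). At an unadjusted p under 0.05 the guidance genes counted 13 lower against 7.37% of all genes, and 5 higher against 7.15%. Epha3 alone was at least 2-fold lower on both arrays (0.619% of all genes), and no guidance gene was at least 2-fold higher on both (0.578% of all genes). The fit has 1 residual degree of freedom per gene, and the common variance estimate carries most of each p. With median centring in place of loess none of the 3 passed, and with no normalization none did either.

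**Figure D1:**
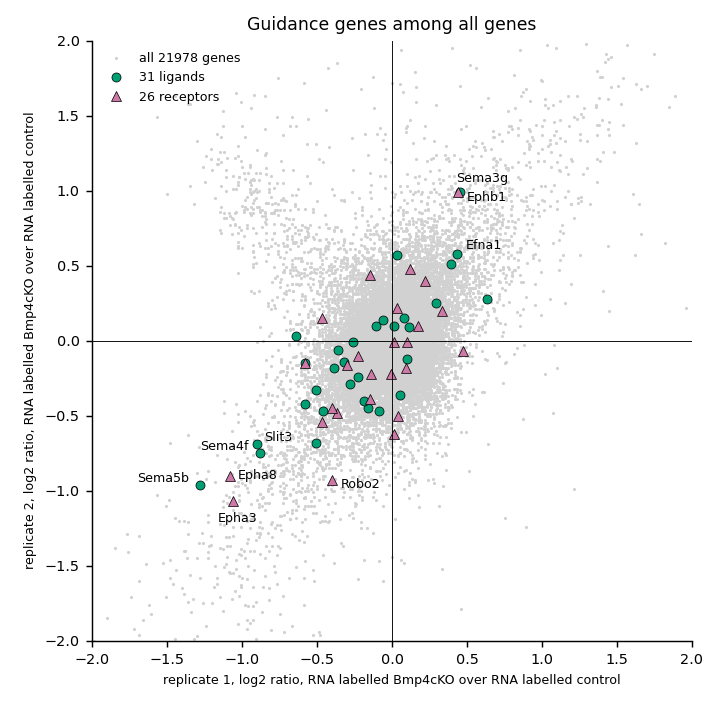
Log2 ratio of RNA labelled Bmp4cKO over RNA labelled control on replicate 1 (x axis) and replicate 2 (y axis), with grey dots for all 21978 genes, circles for 31 guidance ligands and triangles for 26 guidance receptors; 97 genes lie beyond the axes. Epha3, Epha8 and Sema5b lie furthest to the lower left of the guidance genes, and Sema3g and Ephb1 furthest to the upper right.

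Eph receptors of the A class held 2 of the 3 genes that passed the test. Epha3, a receptor of ephrin-A ligands, had signals of 384 and 456 in the RNA labelled Bmp4cKO, against 806 and 998 in the RNA labelled control. Both signals of the RNA labelled Bmp4cKO lay below both of the RNA labelled control. The share of all genes that separate by label in this way was not counted, here or for the genes below. Such a comparison also crosses the arrays, whereas each ratio pairs the channels of 1 array. The arrays gave log2 ratios of -1.06 and -1.07, which average -1.06 ± 0.01 (SD, n = 2 arrays; limma adjusted p = 0.03; 95% interval -1.36 to -0.77), or 2.09-fold lower. Its probe lies on chromosome 16 from 63545155 to 63545214 in mouse build mm9, and the part of the transcript it covers was not determined. Epha8, another receptor of this class, had signals of 374 and 567 in the RNA labelled Bmp4cKO, against 765 and 1148 in the RNA labelled control. The 2 groups again did not overlap. The log2 ratios were -1.08 and -0.90, averaging -0.99 ± 0.13 (SD, n = 2 arrays; limma adjusted p = 0.037), for a probe on chromosome 4 from 136485335 to 136485394.

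The other A-class receptors did not pass. Epha4, which can bind ephrins of both classes, was at -0.37 and -0.48 on the log2 scale (mean -0.43 ± 0.08; limma adjusted p = 0.19). Epha1 was at 0.33 and 0.20 (mean 0.26). Epha2, an epithelial receptor of ephrin-A1, and Epha7 went in opposite directions on the arrays, at -0.15 and 0.44 and at 0.47 and -0.07. Of the other Epha7 probes, one was at 0.20 and -0.08, and one at 0.52 on both arrays, with signals of 299 and 316 in the RNA labelled Bmp4cKO, against 198 and 212 in the RNA labelled control (limma adjusted p = 0.12 over probes). No channel had Epha10 well above background. Epha6 was not well above background on replicate 1, with signals of 3.46 in RNA labelled Bmp4cKO and 4.79 in RNA labelled control, but was well above it in both RNAs of replicate 2, at 83.0 in RNA labelled Bmp4cKO and 84.7 in RNA labelled control. For Epha6 the arrays thus lay far apart and the channels of an array close together.

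**Figure D2:**
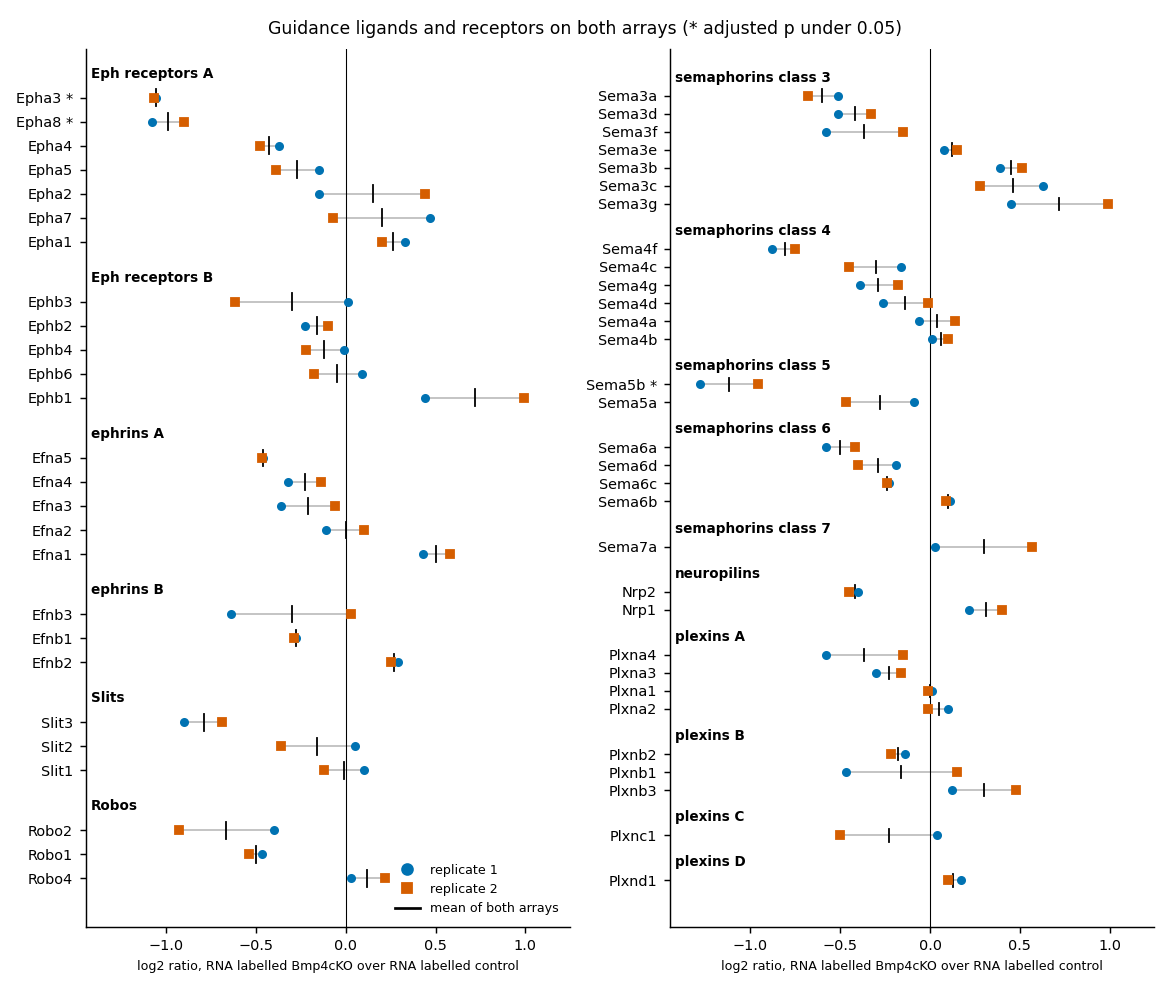
Log2 ratio of each of the 57 guidance genes, by family, on replicate 1 (circles) and replicate 2 (squares), with a short vertical line at the mean and a star where the limma adjusted p was under 0.05. The stars mark Epha3, Epha8 and Sema5b, and the 2 arrays lie close together for Epha3, Efna5 and Efnb1 and far apart for Efnb3, Ephb3 and Plxnb1.

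Epha5 had probes of opposite direction, and the probe that stood for the gene held a simple repeat. The probe with the higher mean level had signals of 9712 and 8074 in the RNA labelled Bmp4cKO, against 10680 and 10396 in the RNA labelled control, and log2 ratios of -0.15 and -0.39. The other probe had signals of 850 and 825 in the RNA labelled Bmp4cKO, against 355 and 408 in the RNA labelled control. Its log2 ratios were 1.11 and 1.00, averaging 1.05 ± 0.08 (SD, n = 2 arrays; limma adjusted p = 0.033 in a fit of every probe on its own, in which 0.835% of all probes were higher and 0.957% lower). A stretch of 30 bases of each 60-base probe is shown because the probes disagree, 5′ to 3′, with an alternating run of T and G in capitals.
Epha5, bases 28 to 57 of the probe at chr5:84487348-84487407, mm9, minus strand: aaatTGTGTGTGTGTGTGTGTGTGcgtgcg
Epha5, bases 31 to 60 of the probe at chr5:84483837-84483896, mm9, minus strand: tttgtgtacatgtttttgtagtgtaagata
The run in the first of these has 20 bases. Alternating TG or AC runs of 16 bases or more occurred in 106 probes of the array, and 4 of them were probes of guidance genes, each of which stood for its gene. Their mean log2 ratios lay close together, at -0.27 for Epha5, -0.30 for Ephb3, -0.30 for Sema4c and -0.29 for Sema6d. Over all 106 such probes the median was -0.27, with -0.09 on replicate 1 and -0.40 on replicate 2, and the middle 50% lay from -0.30 to -0.20. Over probes without such a run the median was -0.01. Which transcripts these probes bound was not tested. When probes with such a run were left out, an alternative chosen after seeing the data, Epha5 passed as higher (limma adjusted p = 0.031), Sema6d was at 0.09, and Ephb3 and Sema4c had no other probe.

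**Figure D3:**
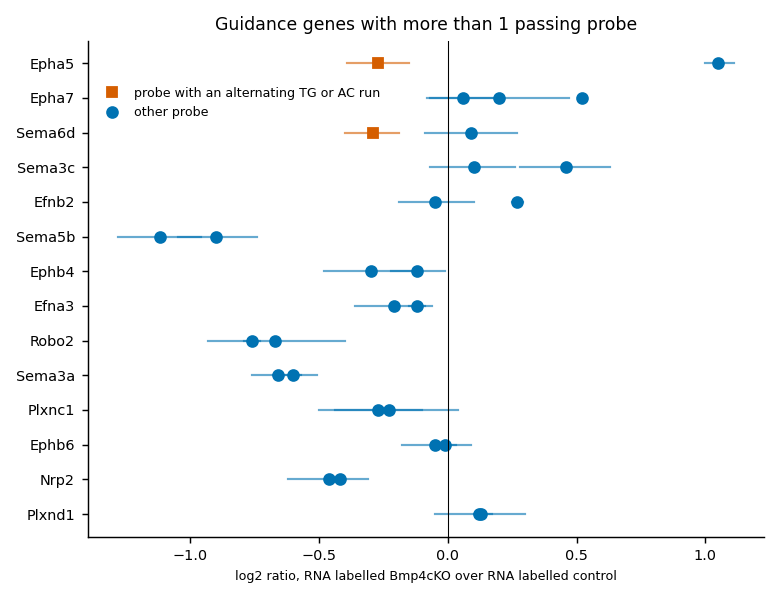
Log2 ratio per probe for the 14 guidance genes with more than 1 passing probe, with the mean of both arrays as a symbol and the 2 arrays as the ends of a line; squares are probes with an alternating TG or AC run, circles are other probes. Epha5 spans from -0.27 to 1.05, and the probes of Robo2, Sema3a, Nrp2 and Sema5b lie on the same side of 0.

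Among receptors of the B class none passed the test. Ephb1, a receptor of ephrin-B ligands, had signals of 634 and 994 in the RNA labelled Bmp4cKO, against 405 and 508 in the RNA labelled control. Its log2 ratios were 0.44 and 0.99 (mean 0.72 ± 0.38, SD, n = 2 arrays; limma adjusted p = 0.13), and the labels did not overlap. Ephb2 had 514 and 684 in the RNA labelled Bmp4cKO, against 628 and 728 in the RNA labelled control, with ratios of -0.23 and -0.10. Ephb4, a receptor of venous endothelium, was at a mean of -0.12 and, on its other probe, -0.30, and Ephb6, whose kinase domain is inactive, at -0.05. Ephb3 was measured only by a probe with an alternating run, at 0.01 and -0.62.

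The ephrins had no called gene either. Efna1, a ligand of Epha2, had signals of 5405 and 8338 in the RNA labelled Bmp4cKO, against 4156 and 5343 in the RNA labelled control. Both signals of the RNA labelled control lay below those of the RNA labelled Bmp4cKO, the nearest pair by little, and the log2 ratios were 0.43 and 0.58 (mean 0.50 ± 0.10, SD, n = 2 arrays; limma adjusted p = 0.14). Efna5, a ligand of Epha3, had 4368 and 5539 in the RNA labelled Bmp4cKO, against 5990 and 7952 in the RNA labelled control. Its labels did not overlap either, and its ratios were -0.46 and -0.47 (limma adjusted p = 0.15). Efna4 and Efna3 were at means of -0.23 and -0.21. Efnb1, the X-linked ligand of B-class receptors, had 13385 and 17132 in the RNA labelled Bmp4cKO, against 15294 and 21426 in the RNA labelled control, with ratios of -0.28 and -0.29 (limma adjusted p = 0.37). Efnb2, a ligand of Ephb4 in arterial endothelium, had 6905 and 8758 in the RNA labelled Bmp4cKO, against 5845 and 7093 in the RNA labelled control. Its ratios were 0.29 and 0.25, or a mean of -0.05 on its other probe, and both ephrin-B genes overlapped between the labels. Efnb3 was at -0.64 and 0.03. The median was -0.21 over 5 ephrin-A genes and -0.28 over 3 ephrin-B genes.

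Sema5b was the semaphorin gene that passed. It encodes a transmembrane semaphorin with thrombospondin repeats that is known for a repulsive effect on axons. Its probe on chromosome 16 from 35663660 to 35663719 had signals of 290 and 347 in the RNA labelled Bmp4cKO, against 765 and 698 in the RNA labelled control. Both RNAs labelled Bmp4cKO lay below both RNAs labelled control. The log2 ratios were -1.28 and -0.96, averaging -1.12 ± 0.22 (SD, n = 2 arrays; limma adjusted p = 0.035), or 2.18-fold lower. A further probe, from 35664281 to 35664340, had signals of 222 and 242 in the RNA labelled Bmp4cKO, against 457 and 456 in the RNA labelled control, and a mean log2 of -0.90 ± 0.22, which did not pass over probes (limma adjusted p = 0.055). The related Sema5a had 8640 and 8859 in the RNA labelled Bmp4cKO, against 9185 and 11815 in the RNA labelled control (ratios -0.09 and -0.47; limma adjusted p = 0.49).

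The promoters of the 3 called genes are shown because the genes moved the same way, from 250 bases before to 50 after the start, 5′ to 3′ on the gene's strand, as RefSeq gives them for GRCm38.p6. Capitals mark matches to any of 4 motifs on either strand. These were GTCTAGAC and GTCTGTCT, which hold the short SMAD site, GGCGCC, a site of BMP SMADs, and the DR5 element, a direct repeat that retinoic acid receptors can bind. GTCTAGAC and GGCGCC read the same on both strands, and no motif was removed for overlap with another.
Epha3, chr16:63864126-63864425, minus strand: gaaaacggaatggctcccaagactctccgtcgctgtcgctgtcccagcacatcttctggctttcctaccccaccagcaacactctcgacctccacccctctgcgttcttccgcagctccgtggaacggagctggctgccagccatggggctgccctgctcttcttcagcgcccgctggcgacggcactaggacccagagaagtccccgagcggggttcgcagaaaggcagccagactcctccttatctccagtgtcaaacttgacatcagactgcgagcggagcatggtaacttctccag
Epha8, chr4:136956767-136957066, minus strand: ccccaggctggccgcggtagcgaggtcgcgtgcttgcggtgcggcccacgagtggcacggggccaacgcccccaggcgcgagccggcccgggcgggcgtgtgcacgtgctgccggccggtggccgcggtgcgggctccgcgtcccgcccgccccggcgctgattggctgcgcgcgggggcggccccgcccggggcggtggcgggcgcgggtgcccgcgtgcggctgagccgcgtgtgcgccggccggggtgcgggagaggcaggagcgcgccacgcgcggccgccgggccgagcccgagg
Sema5b, chr16:35541112-35541411, plus strand: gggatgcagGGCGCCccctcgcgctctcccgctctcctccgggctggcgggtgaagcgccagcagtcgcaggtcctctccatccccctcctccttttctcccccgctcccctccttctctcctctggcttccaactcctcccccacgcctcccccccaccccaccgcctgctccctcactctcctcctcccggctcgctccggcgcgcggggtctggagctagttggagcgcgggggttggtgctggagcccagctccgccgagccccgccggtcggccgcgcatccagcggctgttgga
The Sema5b window held 1 match to GGCGCC, and the Epha3 and Epha8 windows held none to any of the 4. Over 32851 promoter windows of this length, 11.9% held GGCGCC, 1.88% GTCTGTCT, 0.213% GTCTAGAC and 0.00913% the DR5 element. Promoters were matched for 50 of the 57 guidance genes, in 66 windows, and 13 of these windows, of 13 genes, held GGCGCC. A match is a description of the letters only. The share of G and C was 60.7% for Epha3, 84.3% for Epha8 and 73% for Sema5b, against a median of 52.7% over all windows.

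Secreted class 3 semaphorins were split between the directions, with 3 lower and 4 higher on both arrays. Sema3a, which acts through Nrp1 and A-class plexins, had signals of 208 and 216 in the RNA labelled Bmp4cKO, against 313 and 375 in the RNA labelled control. The labels did not overlap, and the log2 ratios were -0.51 and -0.68 (mean -0.60 ± 0.12, SD, n = 2 arrays; limma adjusted p = 0.099). Another Sema3a probe had 70.0 and 75.6 in the RNA labelled Bmp4cKO, against 141 and 128 in the RNA labelled control, and a mean of -0.66. Sema3d was at -0.51 and -0.33, and Sema3f, which favours Nrp2, at -0.58 and -0.15. On the other side, Sema3g had signals of 337 and 632 in the RNA labelled Bmp4cKO, against 234 and 312 in the RNA labelled control. Again without overlap, its ratios were 0.45 and 0.99 (mean 0.72 ± 0.38, SD, n = 2 arrays; limma adjusted p = 0.13). Sema3c was at 0.63 and 0.28, or a mean of 0.10 on its other probe, and Sema3b at 0.39 and 0.51. Sema3e, a ligand of Plxnd1, was at a mean of 0.12.

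Of the membrane-bound semaphorins, 4 of 6 class 4 genes and 3 of 4 class 6 genes were lower on both arrays. Sema4c and Sema6d were among them by probes with an alternating run. Sema4f had signals of 175 and 248 in the RNA labelled Bmp4cKO, against 358 and 417 in the RNA labelled control. The labels did not overlap, and the mean was -0.81 ± 0.09 (SD, n = 2 arrays), just outside the threshold (limma adjusted p = 0.052) and past it in 5 alternatives. Sema4g was at -0.29, Sema4d, a ligand of Plxnb1, at -0.14, Sema4b at 0.06 and Sema4a at 0.04, while Sema4c, with 33937 and 29883 in the RNA labelled Bmp4cKO and 32642 and 44942 in the RNA labelled control (mean -0.30), was measured by a probe with an alternating run. Sema6a, a ligand of A-class plexins, had 2601 and 3631 in the RNA labelled Bmp4cKO, against 3716 and 4908 in the RNA labelled control. The labels did not overlap, and the ratios were -0.58 and -0.42 (mean -0.50 ± 0.11, SD, n = 2 arrays; limma adjusted p = 0.15). Sema6d had 1747 and 1458 in the RNA labelled Bmp4cKO, against 1919 and 1953 in the RNA labelled control, on its probe with an alternating run. Sema6c was at -0.24 and Sema6b at 0.10. Sema7a, which is anchored in the membrane by a lipid and binds Plxnc1, had 340 and 543 in the RNA labelled Bmp4cKO, against 344 and 338 in the RNA labelled control (ratios 0.03 and 0.57; limma adjusted p = 0.53). In all, 12 of 20 semaphorin genes were lower on both arrays, Sema4c and Sema6d with their run probes included, and 7 higher. Over all genes the shares were 30.6% lower and 28.2% higher on both arrays. On its other probe Sema6d was at -0.09 and 0.27.

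**Figure D4:**
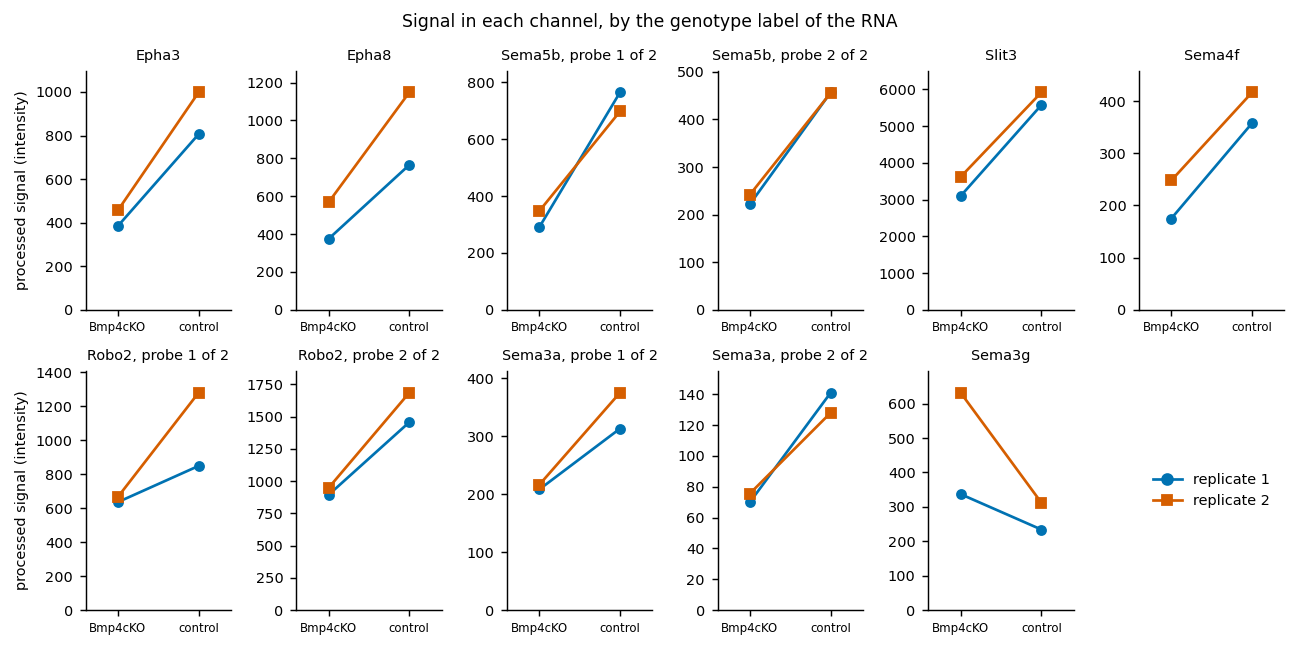
Processed signal (intensity, linear axis from 0) in the RNA labelled Bmp4cKO and the RNA labelled control on replicate 1 (circles) and replicate 2 (squares), with a line joining the channels of an array. Both RNAs labelled Bmp4cKO lie below both RNAs labelled control for Epha3, Epha8, Slit3, Sema4f and each probe of Sema5b, Robo2 and Sema3a, and above both for Sema3g. The genes shown are a selection, and the share of all genes that separate in this way was not counted.

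No receptor of the semaphorins passed the test. Nrp2 had 3232 and 4442 in the RNA labelled Bmp4cKO, against 4545 and 5859 in the RNA labelled control, and a mean of -0.42 ± 0.03 (limma adjusted p = 0.19), with -0.46 on a further probe. Nrp1, which endothelial cells also use as a receptor of VEGF, had 2035 and 2577 in the RNA labelled Bmp4cKO, against 1806 and 1909 in the RNA labelled control (mean 0.31 ± 0.13; limma adjusted p = 0.35). Neither overlapped between the labels. The 9 plexin genes ranged from -0.37 to 0.30, and 4 of them went in opposite directions on the arrays. Plxna4, a partner of Nrp1, had 142 and 237 in the RNA labelled Bmp4cKO, against 211 and 280 in the RNA labelled control (ratios -0.58 and -0.15). Plxnb3 had 109 and 144 in the RNA labelled Bmp4cKO, against 103 and 95.3 in the RNA labelled control (ratios 0.12 and 0.48). Plxna1 was at 0.01 and -0.01, with a 95% interval of its mean from -0.30 to 0.29. Plxnd1, an endothelial plexin, was at 0.17 and 0.10, and Plxnb2, a receptor of Sema4c, at -0.14 and -0.22.

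Of the Slits and their receptors, Slit3, Robo1 and Robo2 were below 0 on both arrays and none passed. Slit3 had signals of 3097 and 3618 in the RNA labelled Bmp4cKO, against 5576 and 5920 in the RNA labelled control. The labels did not overlap, and the mean log2 was -0.79 ± 0.15 (SD, n = 2 arrays; limma adjusted p = 0.058), or 1.73-fold lower. It passed in 4 alternatives, namely plain subtraction, no filter on dim probes, and either other variance prior. Robo2 had signals of 635 and 665 in the RNA labelled Bmp4cKO, against 848 and 1279 in the RNA labelled control, and log2 ratios of -0.40 and -0.93 (limma adjusted p = 0.15). Its further probe had 893 and 947 in the RNA labelled Bmp4cKO, against 1457 and 1686 in the RNA labelled control, with ratios of -0.79 and -0.73 (limma adjusted p = 0.057 over probes). The 2 Robo2 probes thus gave means of -0.67 and -0.76. Robo1 had 661 and 1113 in the RNA labelled Bmp4cKO, against 872 and 1667 in the RNA labelled control. Its labels overlapped, as both signals of replicate 2 lay above both of replicate 1. Within the arrays its ratios were alike, at -0.47 and -0.54 (limma adjusted p = 0.13). Slit2, the ligand that acts with Robo2 in placing the ureteric bud, had 1321 and 1298 in the RNA labelled Bmp4cKO, against 1273 and 1651 in the RNA labelled control (ratios 0.05 and -0.36), and Slit1 was at 0.10 and -0.12. Robo4, an endothelial receptor, was at 0.03 and 0.22, and Robo3 was not well above background.

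Outside these families, 1 gene of the guidance partner lists passed, where 1.91% of all genes did in either direction. Of 14 listed netrin ligands and receptors 9 were measured, and Ntn3, a secreted netrin, was lower at -0.80 and -0.86 (mean -0.83 ± 0.04, SD, n = 2 arrays; limma adjusted p = 0.045) and none was higher. Ntn1 was at -0.54 and the netrin receptor Unc5b at 0.70. No gene passed among 2 repulsive guidance molecules, 19 plexin and neuropilin signalling partners, 14 Slit and Robo signalling partners and 14 Eph signalling partners (limma). At an unadjusted p under 0.05 stood 0, 6, 2 and 2 of them, in the same order, and 5 of the 9 netrin genes, against 3191 of all 21978 genes. Their medians were -0.05, -0.03, -0.12 and 0.01. Among genes that moved alike on both arrays, those furthest from 0 were Gpc1, a heparan sulfate proteoglycan, at -0.39 and -0.72 in the Slit list, Dpysl4, of a family that acts downstream of semaphorins, at -0.28 and -0.70 in the plexin list, and Adam10, a protease that cleaves ephrins, at 0.47 and 0.24 in the Eph list.

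Markers of other cells moved on both sides, and in whole ureters fewer cells of a type and less RNA per cell cannot be told apart. Over all genes 1.02% were called lower and 0.887% higher (limma), and 28.2% lay above 0 on both arrays. Neuronal and Schwann genes, whose cells carry many guidance receptors, counted 4 lower and 0 higher of 12 (limma), with a median of -0.47. Their summed signal was 8764 and 8911 in the RNA labelled Bmp4cKO, against 11965 and 12770 in the RNA labelled control. Among the lower ones were Prph, Tubb3 and Elavl3, genes of neurons, at -1.80, -1.52 and -0.89. Of 5 kidney stroma genes, which share Ntn1 with the netrin list, Smoc2 and Alx1 were called lower, of 6 measured nephron genes Gdnf, Wt1 and Lhx1, and of 5 ureteric bud tip genes Wnt9b and Ret. In the nephron list, Cited1 was at 0.65 and 0.37 and Six2 at 1.21 and -0.99, neither called. In the kidney stroma list, Foxd1 was at -0.07 and -0.12 and was not called. In the bud tip list, Etv5, Etv4 and Wnt11 were at means of -0.07, -0.27 and -0.34, none called. The summed signal of the kidney stroma list was 23136 and 31204 in the RNA labelled Bmp4cKO, against 40732 and 66817 in the RNA labelled control. Smoc2 made up much of that sum, with 10491 and 12515 in the RNA labelled Bmp4cKO, against 25526 and 39069 in the RNA labelled control. Endothelial genes had 10 of 12 genes above 0 on both arrays and none called (limma; 6 at an unadjusted p under 0.05), with a median of 0.31. Their summed signal was 53629 and 68580 in the RNA labelled Bmp4cKO, against 45798 and 48564 in the RNA labelled control. Urothelial genes had 9 of 14 called higher, led by Upk1b at 3.72, while Shh was at -0.60 and -0.83 and did not pass (limma adjusted p = 0.071), and Trp63 and Krt5 were at means of 0.04 and 0.06. Their summed signal was 103854 and 111032 in the RNA labelled Bmp4cKO, against 47420 and 51791 in the RNA labelled control. Of 9 measured smooth muscle genes, Myh11, Actg2 and Cnn1 were called higher, at 2.48, 2.31 and 2.14, and Tnc lower, at -1.39. The part of these cell types in the values of the guidance genes was not tested.

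**Figure D5:**
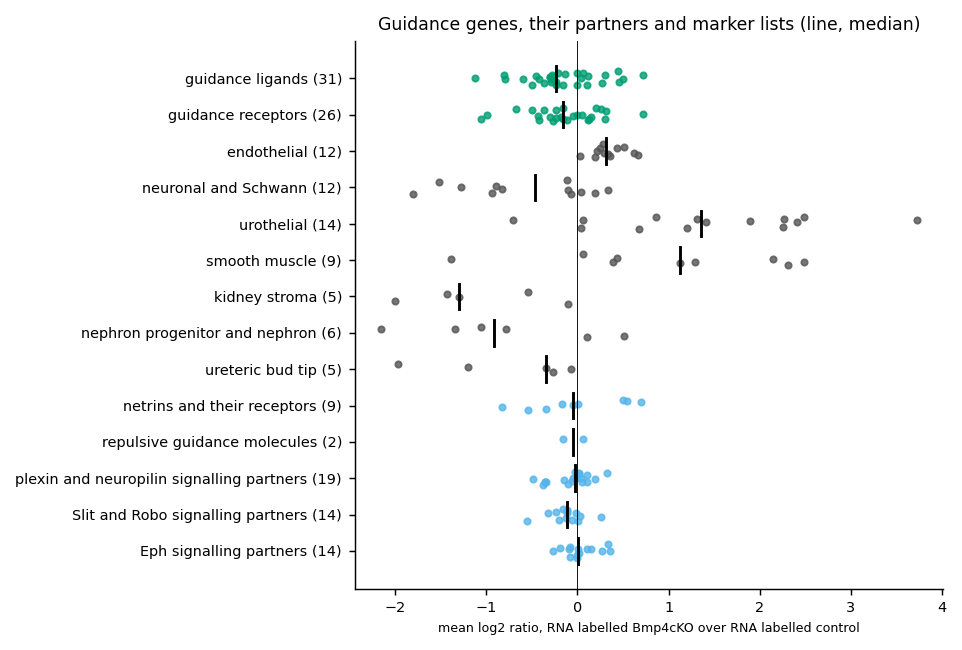
Mean log2 ratio of the guidance ligands and receptors (top), of 7 marker lists (dark) and of 5 lists of guidance partners (light blue), 1 dot per gene and a vertical line at the median, with the number of genes in brackets. The guidance genes spread from -1.12 to 0.72, the neuronal and kidney lists lie mostly below 0, and the urothelial list lies mostly above it.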

How the data were processed

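Ureter RNA was measured on 2 two-colour Agilent arrays of 44397 spots, 1377 of them controls, on 1 slide. Agilent Feature Extraction 10.7.3.1 quantified the spots and mm9 is the build of the positions, per the file headers. Spot and background intensities were deposited unnormalized on a linear scale. Processed intensities were deposited after the software's detrending and dye normalization, with a log10 ratio of red to green, per the file headers. Per probe, the authors' table gives a score that, compared with the scanner's log ratio, was a signed fold (within 0.01 in log2 for 99% of values of probes above background in all channels), whose sign follows red over green on replicate 1, the reverse on replicate 2, and whose column medians were both 1. The sample titles read Bmp4cKO vs control, and the sources do not otherwise say which RNA stands on top. Read in that order, the table has Bmp4 lower and Epha3 higher in Bmp4cKO. Those directions are the reverse of the ones given here by the dye labels. In the authors' deposited table Epha3 is at 2.1 and 2.19 and Bmp4 at -8.16 and -13.9, so that Epha3 and Bmp4 run opposite to each other there too.

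Median spot over background intensity was between 7.18 and 15.8 per channel, no probe spot was saturated, and 231 and 235 outlier spots were left out. Precision is limited by the number of arrays. With limma 3.58.1 (R 4.3.3), normexp (offset 50) was applied to mean spot and median background intensity, then loess within arrays, where control spots had weight 0. Probes passed if well above background in both channels of either genotype label, and the probe with the highest mean level stood for a gene. Of 39429 probes 31001 were named through RefSeq tables of GRCm38.p6 and 8428 kept the array's name; 1 probe named through them as Nrp2, outside the array-name rule, was left out. The log2 ratios were turned by the dye labels, fitted with lmFit and eBayes (4.03 prior degrees of freedom) and adjusted by Benjamini-Hochberg over 21978 genes. The fit was tested on simulated data. The p-values rest only on the spread between these arrays, that of each gene and, for the larger part, that shared over all genes. The members and lists were chosen with earlier results of these data known. By rule, full values were given for Bmp4, Tbx18, called genes, those past 2-fold on both arrays and, per family, the 2 largest changes alike on both arrays; of other lists, called genes or the largest changes were named, a few of which are not reported here. Alternatives covered background correction, normalization, probe filter and choice, variance prior, the sex chromosomes, the authors' values and leaving out either array.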

Additional observations from a re-analysis of the deposited data

Results flagged for a closer look

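For 13 guidance genes (22.8%, against 41.2% of all genes) the ratio changed sign between the arrays, where sex label and dye orientation change together. None of these differences was tested. Replicate 2 minus replicate 1, in log2, was 0.67 for Efnb3, 0.62 for Plxnb1, 0.59 for Epha2, 0.21 for Efna2 and 0.20 for Sema4a. It was -0.63 for Ephb3, -0.54 for Plxnc1, -0.53 for Epha7, -0.40 for Slit2, -0.26 for Ephb6, -0.22 for Slit1, -0.10 for Plxna2 and -0.02 for Plxna1. Ephb3 was measured only by a probe with an alternating TG or AC run, and over the 106 probes of that kind the median was -0.09 on replicate 1 and -0.40 on replicate 2. Family medians also differed in sign, by -0.19 for B-class Eph receptors, 0.31 for ephrin-B genes, 0.29 for B-class plexins and -0.40 for Slits.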

How the results depend on the processing

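Each ratio pairs the RNAs of 1 array, so that the fit is itself paired and no fit with a further replicate block could be made. Epha3, Epha8 and Sema5b kept their direction in every alternative run, either array alone included, and passed in 12 of 14 with a test; Epha3 ranged from -1.10 to -1.06, Epha8 from -1.08 to -0.90 and Sema5b from -1.28 to -0.96. With median centring and with no normalization 0 guidance genes were lower past the threshold (limma), 13 and 0 had an unadjusted p under 0.05 in either direction, and over all genes 0 and 1 passed, against 671 lower and 612 higher with a trended variance prior. The adjusted p of the 3 genes was then 0.30 to 0.33 and 1.00. The count of lower guidance genes was 5 with plain subtraction, with no filter on dim probes and with a robust prior, each adding Sema4f and Slit3, and 6 with a trended prior, which also added Sema6a at an adjusted p of 0.043. That count was 4 with the authors' value table, which added Sema4f. The count of higher ones was 1, Epha5, with every probe on its own and without probes that hold an alternating run. In that last setting, chosen after seeing the data, Epha5 turned to 1.05, and the median of the A-class Eph receptors was 0.15 in place of -0.27. At least 2-fold the same way on both arrays were 2 with plain subtraction, 3 with the processed signals and with the authors' value table, 0 with median centring or no normalization, and 1 to 3 without replicate 1 or 2. The cause of these changes was not tested. Of 907 values of single genes across settings, 871 kept direction and side of the threshold, and 13 of the 19 that changed sign without a call did so with 1 array left.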

Other observations

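Probes with an alternating TG or AC run of 16 bases or more gave values in a narrow range across the array. All 106 were well above background in all 4 channels, against 66.6% of the 39323 other probes. Of the 106, 84 had a ratio below 0 on both arrays and 1 had one above 0 on both, and their means ranged from -0.43 to 0.15.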
